A study of Mus musculus with 6 samples.

Results

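Calb2 (calretinin), Calb1 (calbindin), Gria2, Syt13, Cadps2, Dcx (doublecortin) and Gap43 are best known from neurons, and they were followed here in embryonic mouse limb tissue with and without the transcription factor LMX1B. These 7 genes, of 18193 genes with a single symbol on the array, were selected from earlier results of the same comparison, so their change between the groups is described and not tested. Every probe set annotated with 1 of these symbols alone was taken, which gave 16 of 45037 probe sets (a probe set is the group of short probes that reads a transcript). The tested tissue was the proximal hindlimb bud of Lmx1b-null (Lmx1b -/-) embryos, and it was set against that of wild-type embryos, all of the 129Sv background at the E11.5 stage. Each group had 3 pools with 1 array per pool, and a pool combined the 6 buds of 3 embryos, about 500 µm of proximal tissue from each. In the Lmx1b-null pools 6 of the 7 genes had at least 1 probe set whose 3 values all lay below the 3 wild-type values. Singly, 5.78% of all probe sets had such non-overlap, and a gene with several probe sets has more openings for it. Calb1 had no such probe set. Its signal was too low to show whether the working name of the group, neuronal-type genes that are lower without LMX1B, holds for it.

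LMX1B, a transcription factor of the LIM homeodomain class, is made in dorsal limb mesenchyme and is needed for dorsal pattern in the limb. Calretinin and calbindin are cytosolic calcium-binding proteins with EF-hand motifs, used as markers of certain neurons, and calretinin is also known from mesothelium. Gria2 encodes an AMPA-type glutamate receptor subunit, Syt13 and Cadps2 encode proteins of vesicle traffic, and Dcx and Gap43 encode proteins of the cytoskeleton and the growth cone in migrating and growing neurons. At this stage motor and sensory axons are entering the proximal limb, while most cells there are mesenchymal. In such bulk tissue, fewer cells of a type and less RNA per cell cannot be told apart.

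Sequence before the gene start was taken from RefSeq (build GRCm38.p6) for the 3 of the 7 genes that matched, Gria2, Cadps2 and Dcx; Calb2, Calb1, Syt13 and Gap43 had no match. The 250 bases upstream of the start are shown because these genes were all lower in Lmx1b-null pools and LMX1B, as a homeodomain protein, belongs to a class that binds A and T rich DNA. Capitals mark every TAAT on either strand (TAAT or ATTA as printed), the core that many homeodomains prefer. Gria2 is read from the minus strand (chr3:80802836-80803085), as are Cadps2 (chr6:23839422-23839671) and Dcx (chrX:143933220-143933469, the more upstream of a pair of starts).
Gria2: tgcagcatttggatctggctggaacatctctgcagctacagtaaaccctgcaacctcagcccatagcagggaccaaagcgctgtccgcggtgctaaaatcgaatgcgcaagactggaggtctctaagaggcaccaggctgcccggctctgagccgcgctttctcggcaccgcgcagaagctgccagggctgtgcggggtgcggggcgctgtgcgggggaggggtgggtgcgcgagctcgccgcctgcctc
Cadps2: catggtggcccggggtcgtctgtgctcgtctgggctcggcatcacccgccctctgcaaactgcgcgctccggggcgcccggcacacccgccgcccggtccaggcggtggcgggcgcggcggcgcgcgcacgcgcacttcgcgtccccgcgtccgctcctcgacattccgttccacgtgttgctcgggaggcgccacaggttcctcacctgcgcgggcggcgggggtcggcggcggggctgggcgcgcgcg
Dcx: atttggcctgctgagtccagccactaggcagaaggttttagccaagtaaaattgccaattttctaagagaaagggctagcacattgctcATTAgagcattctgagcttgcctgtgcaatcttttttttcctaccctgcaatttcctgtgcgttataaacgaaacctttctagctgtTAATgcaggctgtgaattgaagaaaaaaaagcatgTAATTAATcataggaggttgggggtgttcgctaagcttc
The Gria2 and Cadps2 windows held 0 matches, and their GC contents were 64.8% and 78%. The Dcx window held 5 matches and a GC content of 41.6%, and 3 of its matches overlap in a run that contains TAATTA. Of 32851 promoter windows of the same length, 54.9% held TAAT on either strand and 4.84% held TAATTA, against a median GC content of 52.4%. A match is a description of the letters and says nothing of binding.

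The labels were checked on Lmx1b. Its brighter probe set read 4.62, 4.23 and 4.57 in Lmx1b-null pools 1 to 3, against 8.02, 7.58 and 8.17 in wild-type pools 1 to 3 (deposited RMA values, taken as log2, as are all levels below). The other Lmx1b probe set did not differ beyond its spread, at 3.92 ± 0.11 in Lmx1b-null pools and 3.93 ± 0.06 in wild-type pools (SD, n = 3 each), and which part of the transcript each reads was not known here. Over all probe sets the arrays correlated with r between 0.993 and 0.997. Xist is the RNA of the inactive X chromosome in female cells. It read 9.66, 9.16 and 10.79 in Lmx1b-null pools, against 4.68, 9.88 and 4.73 in wild-type pools. The sex of the pooled embryos thus differed between pools, and in part with the groups. All Lmx1b-null pools read high, but only wild-type pool 2 of the other group did. In all, limma called 38 of 45037 probe sets at an adjusted p under 0.05 (0.0844%), 28 of them lower in Lmx1b-null pools (0.0622%). Of the 16 probe sets of the 7 genes, 4 were called, all lower, and 11 had groups that did not overlap with Lmx1b-null below. Over all probe sets, 5.78% had such non-overlap with Lmx1b-null below. Because this comparison chose the genes, nothing is read from these counts. The median change (Lmx1b-null minus wild type) of the 16 was -0.68, against 0.01 over all probe sets.

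**Figure D1:**
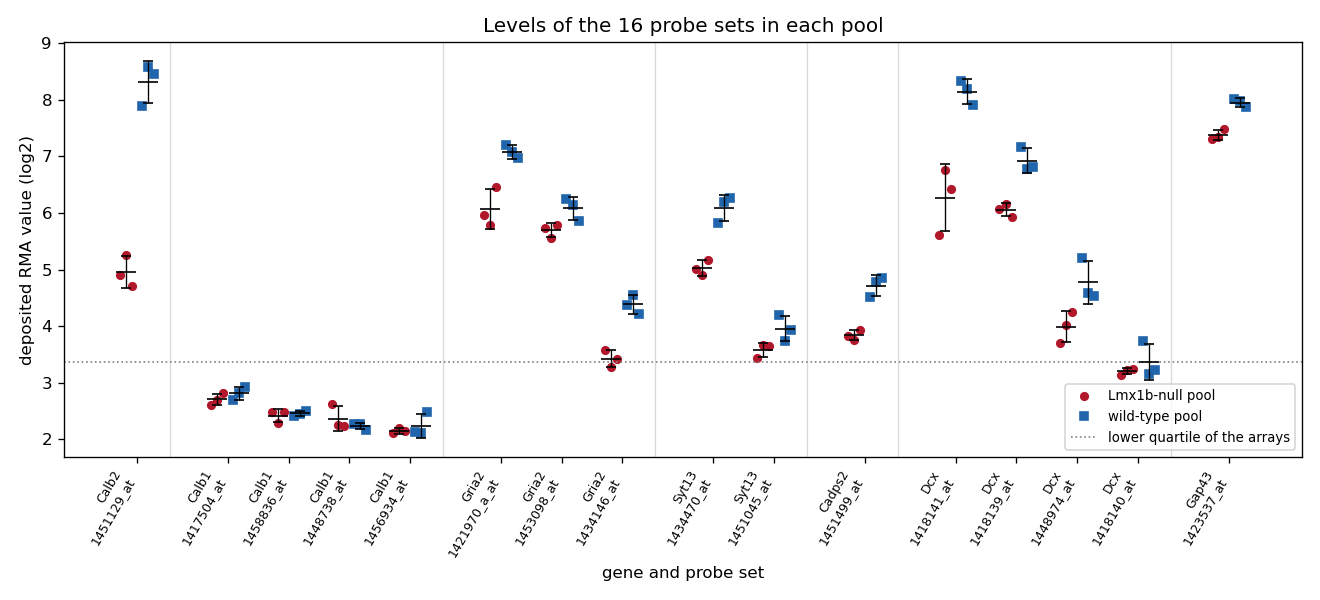
Deposited log2 RMA value (vertical axis) of each of the 16 probe sets in the 3 Lmx1b-null pools (red circles) and the 3 wild-type pools (blue squares), with the mean and SD of each group in black and the highest lower quartile of the arrays, 3.36, as a dotted line. Calb2 shows the widest gap between the groups, 2.63 between the nearest pools, and all Calb1 points lie below the dotted line.

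Calb2 had the largest difference among the 7 genes. Its single probe set read 4.90, 5.26 and 4.71 in Lmx1b-null pools 1 to 3, against 7.89, 8.59 and 8.46 in wild-type pools 1 to 3. The highest Lmx1b-null pool lay 2.63 below the lowest wild-type pool, which was pool 1. The means were 4.96 ± 0.28 in Lmx1b-null pools and 8.31 ± 0.37 in wild-type pools (SD, n = 3 each), a change of -3.36 (limma SE 0.20), or 10.2-fold lower. In Lmx1b-null pools the level was near the median of the arrays, which lay between 4.96 and 4.99, so a residual signal above the lower quartile was read in every pool.

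Calb1, the closest relative of calretinin in the set, gave no comparable reading. All 4 of its probe sets lay below the lower quartile of their array in all 6 pools. The brightest read 2.61, 2.69 and 2.81 in Lmx1b-null pools, against 2.69, 2.81 and 2.93 in wild-type pools, and the groups overlapped. The 4 changes ran from -0.11 to 0.13, each with an SE between 0.08 and 0.11. At this signal a difference in Calb1 was not detectable, and the values do not show whether the transcript was present.

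Gria2, the AMPA receptor subunit whose edited form makes the channel nearly impermeable to calcium, was lower in all 3 probe sets. The brightest read 5.97, 5.78 and 6.46 in Lmx1b-null pools, against 7.20, 7.07 and 6.97 in wild-type pools, a change of -1.01 (SE 0.16). Lmx1b-null pool 3 stood nearest to the wild-type pools, 0.51 below them. A second bright probe set read 5.73, 5.56 and 5.79 in Lmx1b-null pools and 6.25, 6.13 and 5.86 in wild-type pools, a smaller change of -0.39 (SE 0.11), with only 0.07 between the nearest pools. The dimmest read 3.58, 3.27 and 3.42 in Lmx1b-null pools and 4.38, 4.55 and 4.22 in wild-type pools, a change of -0.96 (SE 0.11). It was the only Gria2 probe set among the 4 that were called, although it was the only one of the 3 below the median of all probe sets, where RMA compresses differences.

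Syt13 and Cadps2 both act in vesicle traffic. Syt13 is an atypical synaptotagmin, and Cadps2 primes dense-core vesicles for calcium-triggered release. The brighter Syt13 probe set read 5.003, 4.90 and 5.18 in Lmx1b-null pools, against 5.82, 6.19 and 6.26 in wild-type pools, a change of -1.06 (SE 0.13), or 2.09-fold lower. The dimmer one read 3.44, 3.67 and 3.64 in Lmx1b-null pools and 4.19, 3.75 and 3.94 in wild-type pools, a change of -0.37 (SE 0.12), with 0.07 between the nearest pools. Wild-type pool 1 was the lowest wild-type pool in the brighter Syt13 probe set and the highest in the dimmer one. The single Cadps2 probe set read 3.83, 3.76 and 3.93 in Lmx1b-null pools, against 4.51, 4.79 and 4.85 in wild-type pools, a change of -0.88 (SE 0.10). All its values lay below the median of the arrays and above their lower quartile, and the groups were 0.58 apart.

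Dcx, the microtubule-binding protein of migrating neurons, had the second largest difference. Its brightest probe set read 5.62, 6.76 and 6.43 in Lmx1b-null pools, against 8.34, 8.19 and 7.90 in wild-type pools. The means were 6.27 ± 0.59 in Lmx1b-null pools and 8.14 ± 0.22 in wild-type pools (SD, n = 3 each), a change of -1.87 (SE 0.26), or 3.66-fold lower. The spread of the Lmx1b-null pools, with pool 1 far below the others, was the widest of any of the 16 probe sets in either group. The next brightest read 6.07, 6.17 and 5.93 in Lmx1b-null pools and 7.18, 6.79 and 6.81 in wild-type pools, a change of -0.87 (SE 0.12). Another changed by -0.78 (SE 0.20) without overlap. The fourth, below the lower quartile in 5 of 6 pools, overlapped at 3.21 ± 0.05 in Lmx1b-null pools and 3.37 ± 0.32 in wild-type pools. None of the 4 Dcx probe sets was called.

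Gap43, a membrane-associated phosphoprotein of growth cones, had the smallest difference of the 6 genes that were lower, by their brightest probe sets. Its single probe set read 7.31, 7.34 and 7.48 in Lmx1b-null pools, against 8.01, 7.98 and 7.87 in wild-type pools. The change was -0.57 (SE 0.08), or 1.49-fold lower, and the groups were 0.38 apart. It was not among the 4 called probe sets.

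**Figure D2:**
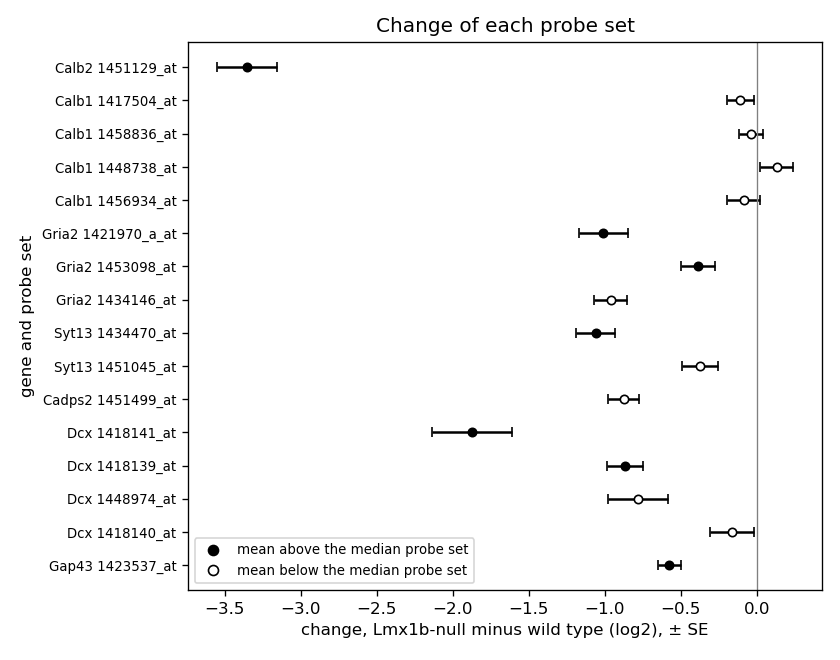
Change of each probe set (horizontal axis, log2, Lmx1b-null minus wild type) with the limma SE as bars, filled where the mean over the 6 pools was above the median probe set and open where it was below. The changes of Calb2 at -3.36 and the brightest Dcx probe set at -1.87 stand farthest from 0, and the probe sets of 1 gene differ, as Gria2 does between -1.01 and -0.39.

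The calls rested on the pools and settings. They are given as a description, since this comparison chose the genes. Calb2 was called with each pool left out in turn, whereas Syt13 and Cadps2 were called only without wild-type pool 1, and the dimmest Gria2 probe set in none of the 6. Leaving out Lmx1b-null pool 3 called the brightest Gria2 probe set instead. With the Xist level in the fit Calb2 alone was called, and the changes in the brightest probe sets were -3.53 for Calb2, -1.10 for Gria2, -1.19 for Syt13, -0.97 for Cadps2, -1.90 for Dcx, which lies on the X chromosome, and -0.63 for Gap43. The dimmer Syt13 probe set moved further, to -0.18 with Xist in the fit against -0.37 without, and the dimmest Dcx probe set to 0.04 against -0.16. With Xist in the fit the SE of these brightest probe sets was larger, as for Calb2 at 0.28 against 0.20. For Dcx it was 0.39 against 0.26. The part of the sex of the embryos in the differences was not tested beyond this fit.

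Co-variation was then read within the groups, as the deviation of each pool from its own group mean, so that the difference that chose the genes does not enter. Over the brightest probe sets of the 7 genes, the 21 pairwise Pearson r over 6 pools ran from -0.72 to 0.996 with a median of 0.13, and 6 were negative. These are descriptions over 6 points that share arrays and normalization. Probe sets of 1 gene did not always deviate together, so each r belongs to the brightest probe sets only. The Syt13 probe sets had r = -0.614 with each other. With the other probe sets of its gene, the brightest Gria2 one had 0.682 and 0.255, and the brightest Dcx one 0.306, 0.386 and 0.636. The brighter Syt13 probe set and Cadps2 deviated almost in parallel (r = 0.996, and 0.995 to 1 with any pool left out). Both were lowest among the wild-type pools in pool 1, by 0.27 and 0.21 below the group mean. Among Lmx1b-null pools both were lowest in pool 2 and highest in pool 3. Of the 18192 other genes, 2.76% had an r of at least 0.9 with Syt13, and Cadps2 ranked 6 among them.

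Gria2 and Gap43 also deviated together (r = 0.84; 0.56 to 0.934 with 1 pool left out). Calb2 went with neither, at r = -0.72 with Gria2 and -0.55 with Gap43. Its r with Syt13 was 0.37 and moved between -0.95 and 0.78 when 1 pool was left out. Calb1 had r = 0.836 with Syt13 (0.708 to 0.945 with 1 pool left out) and 0.822 with Cadps2 (0.698 to 0.95). Its probe sets lay below the lower quartile in all 6 pools, so an r of this size was also reached at that signal. Dcx had r from -0.35 to 0.51 with the other genes. The brightest probe sets of the 6 genes that were lower between the groups thus did not share 1 order of pools within the groups.

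**Figure D3:**
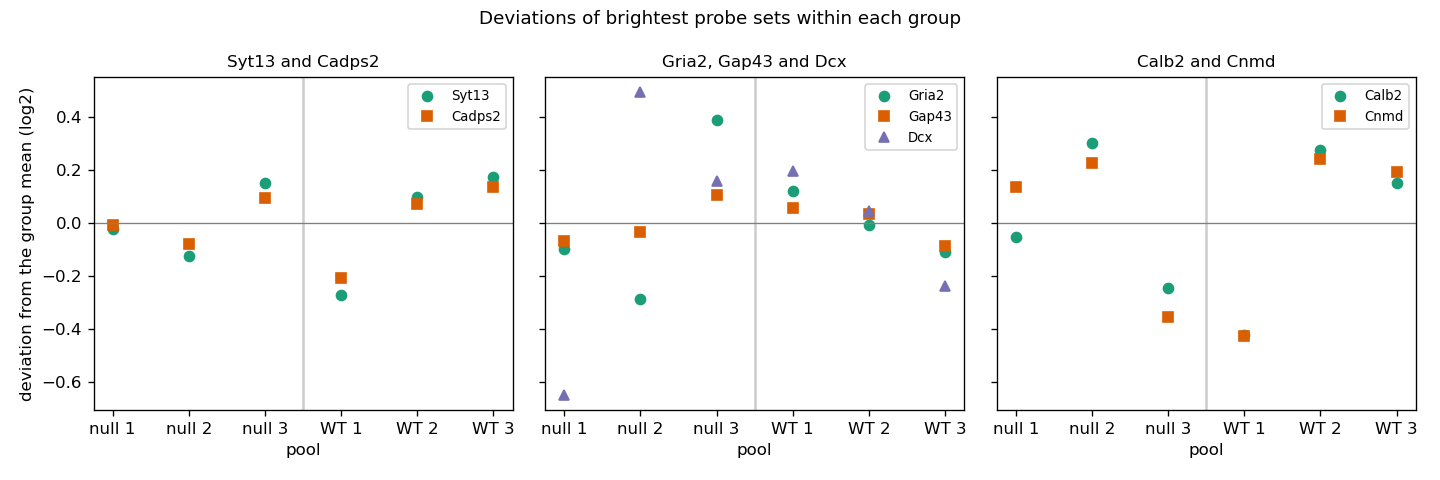
Deviation of each pool from the mean of its group (vertical axis, log2) for the brightest probe sets, with Lmx1b-null pools left of wild-type pools. Syt13 and Cadps2 lie close together in every pool (r = 0.996), Gria2 and Gap43 lie on the same side of 0 except in wild-type pool 2, and Calb2 lies near Cnmd except in Lmx1b-null pool 1.

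Leaving out the 7 genes themselves, 14 genes above the median level differed by at least 1 on the log2 scale, and the 5 of these with values most like those of Calb2 over the 6 pools were Cnmd, Lmx1b, Rpgrip1, Lum and Stk25. The Pearson r over the 6 pools, which carries the group difference, was 0.986 for Cnmd, 0.969 for Lmx1b, 0.966 for Rpgrip1, 0.948 for Lum and 0.936 for Stk25. Within groups only Cnmd (chondromodulin, a glycoprotein of cartilage) and Lum (lumican, a matrix proteoglycan) kept a positive r with Calb2, at 0.939 and 0.473. For Lmx1b, Rpgrip1 and Stk25 it was -0.581, -0.756 and -0.814. An r of at least 0.9 within groups was held by 2.37% of the 18192 other genes with Calb2, and Cnmd ranked 218. The 14 genes also held Xist, higher in Lmx1b-null pools, and Uty, Eif2s3y and Kdm5d, lower there, all with groups that overlapped. Each of Uty, Eif2s3y and Kdm5d was lowest in Lmx1b-null pool 3. Eif2s3y read 5.86, 6.37 and 2.65 in Lmx1b-null pools, against 7.12, 6.00 and 6.90 in wild-type pools.

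The relatives and working partners of the 7 genes were read from lists that held 200 genes, of which 184 were measured by 395 probe sets. None of these probe sets was called by limma over all probe sets, and the smallest adjusted p was 0.167. At an unadjusted p under 0.05 there were 45 (11.4%, against 9.41% of all probe sets), 10 lower and 35 higher in Lmx1b-null pools.

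Of 18 measured EF-hand calcium-binding genes, the brightest probe set was lower in Lmx1b-null pools for 3, with a median change of 0.07. Hpcal1, a neuronal calcium sensor, averaged 8.63 ± 0.08 in Lmx1b-null pools and 8.62 ± 0.08 in wild-type pools (SD, n = 3 each). Ncs1, of the same family, changed by 0.10 (SE 0.08). Necab2 changed by 0.20 (SE 0.07; limma adjusted p = 0.461).

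Of 26 measured glutamate receptor genes and AMPA receptor partners, 11 were lower, with a median change of 0.03. The brightest probe sets of the other AMPA subunit genes, Gria1, Gria3 and Gria4, changed by -0.15 (SE 0.10), -0.10 (SE 0.07) and -0.10 (SE 0.10). Their other probe sets changed by -0.07 for Gria1, -0.02 for Gria3, and 0.21 (SE 0.14) and -0.02 for Gria4. Gria1 lay below the lower quartile in all pools, as did these further Gria4 probe sets. Grip1, a scaffold that binds the tail of the Gria2 product, changed by 0.32 (SE 0.07; limma adjusted p = 0.215) in its brighter probe set and by -0.05 in the other. Grin3a, an NMDA receptor subunit gene, changed by 0.44 in 1 of its 3 probe sets (SE 0.09; adjusted p = 0.182).

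Of 23 measured synaptotagmin relatives, 4 were lower, with a median change of 0.08. Syt11 averaged 7.60 ± 0.11 in Lmx1b-null pools and 7.59 ± 0.07 in wild-type pools (SD, n = 3 each). Sytl2, a synaptotagmin-like gene, changed by -0.27 (SE 0.10; limma adjusted p = 0.459). Of 23 measured genes of dense-core vesicles and release, 8 were lower, with a median change of 0.03. Cadps, the sister gene of Cadps2, lay below the lower quartile in all pools, as did Snap25, Scg2 and Chgb. Cpe, which processes prohormones, changed by -0.05 (SE 0.13), and Rab3a, a vesicle GTPase, by 0.00 in its brighter probe set and 0.22 in the other (SE 0.07; adjusted p = 0.415).

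Of 24 measured microtubule and growth cone genes, 7 were lower, with a median change of 0.03. Stmn1 (stathmin) averaged 12.60 ± 0.03 in Lmx1b-null pools and 12.62 ± 0.00 in wild-type pools (SD, n = 3 each). Marcksl1, a relative of the MARCKS protein, changed by 0.04 (SE 0.06) in its brightest probe set. Dclk1, the doublecortin-like kinase gene, changed by 0.15 (SE 0.07), and Pafah1b1, which encodes LIS1, by -0.09 (SE 0.07). Stmn2 changed by 0.04 (SE 0.12) in its brighter probe set and by -0.48 (SE 0.16; limma adjusted p = 0.426) in the dimmer one. Gprin1, a growth cone gene, changed by 0.15 (SE 0.06; adjusted p = 0.529) in its brightest probe set and by 0.32 (SE 0.07; adjusted p = 0.237) and 0.09 in the others.

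None of the 68 probe sets of neuron markers was called by limma, and 10 were at an unadjusted p under 0.05. Of 26 measured neuron markers, 7 were lower by their brightest probe set (44.5% of all probe sets were lower in Lmx1b-null pools), with a median change of 0.06, and 7 had a mean above the median probe set. The summed log2 level of the list ran from 115.8 to 117.2 in Lmx1b-null pools and from 112.4 to 114.6 in wild-type pools. Tubb3, the neuronal tubulin gene, averaged 4.69 ± 0.08 in Lmx1b-null pools and 4.56 ± 0.08 in wild-type pools, and Elavl3, a neuronal RNA-binding protein gene, 4.37 ± 0.18 in Lmx1b-null pools and 4.34 ± 0.02 in wild-type pools (SD, n = 3 each). Nefl, the neurofilament light chain gene, averaged 5.45 ± 0.18 in Lmx1b-null pools and 4.49 ± 0.45 in wild-type pools (limma adjusted p = 0.212). Uchl1 averaged 7.65 ± 0.11 in Lmx1b-null pools and 7.10 ± 0.32 in wild-type pools (adjusted p = 0.344). Isl1, a gene of motor and sensory neurons that hindlimb mesenchyme also uses, changed by 0.14 (SE 0.09). Among the 7 that were lower, Syp changed by -0.19 (SE 0.07; limma adjusted p = 0.455) in its brighter probe set, without overlap. Its other probe set went the other way, by 0.195 (SE 0.09). Mnx1, also lower, changed by -0.32 (SE 0.19), with groups that overlapped and values below the lower quartile in 5 pools. The brightest probe sets of the motor neuron gene Chat and of Slc5a7, Scn9a and Nefh lay below the lower quartile in all pools.

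Of 11 measured Schwann cell and neural crest markers, 3 were lower, with summed log2 levels from 55.4 to 57.2 in Lmx1b-null pools and from 53.8 to 57.6 in wild-type pools. Erbb3 changed by 0.22 (SE 0.16) and Pmp22 by -0.23 (SE 0.09; limma adjusted p = 0.470). Of 11 measured mesothelium markers, 4 were lower, with sums from 57.8 to 59.6 in Lmx1b-null pools and from 57.1 to 58.2 in wild-type pools. Msln and Lrrn4 lay below the lower quartile in all pools. Aldh1a2, the retinoic acid synthesis gene, changed by -0.37 (SE 0.11; adjusted p = 0.372), and Rspo1 by 0.94 (SE 0.18; adjusted p = 0.167).

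Of 12 measured limb mesenchyme markers, 8 were lower, with a median change of -0.08 and sums from 114.1 to 115.1 in Lmx1b-null pools and from 114.8 to 115.6 in wild-type pools. Prrx1 averaged 11.07 ± 0.02 in Lmx1b-null pools and 11.20 ± 0.04 in wild-type pools, and Pdgfra 11.08 ± 0.07 in Lmx1b-null pools and 11.23 ± 0.06 in wild-type pools (SD, n = 3 each). Of 10 measured surface ectoderm markers, 2 were lower, with sums from 65.1 to 67.0 in Lmx1b-null pools and from 63.0 to 66.4 in wild-type pools, and Krt5 changed by 0.21 (SE 0.12). The part of any of these cell types in the differences of the 7 genes was not tested.

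**Figure D4:**
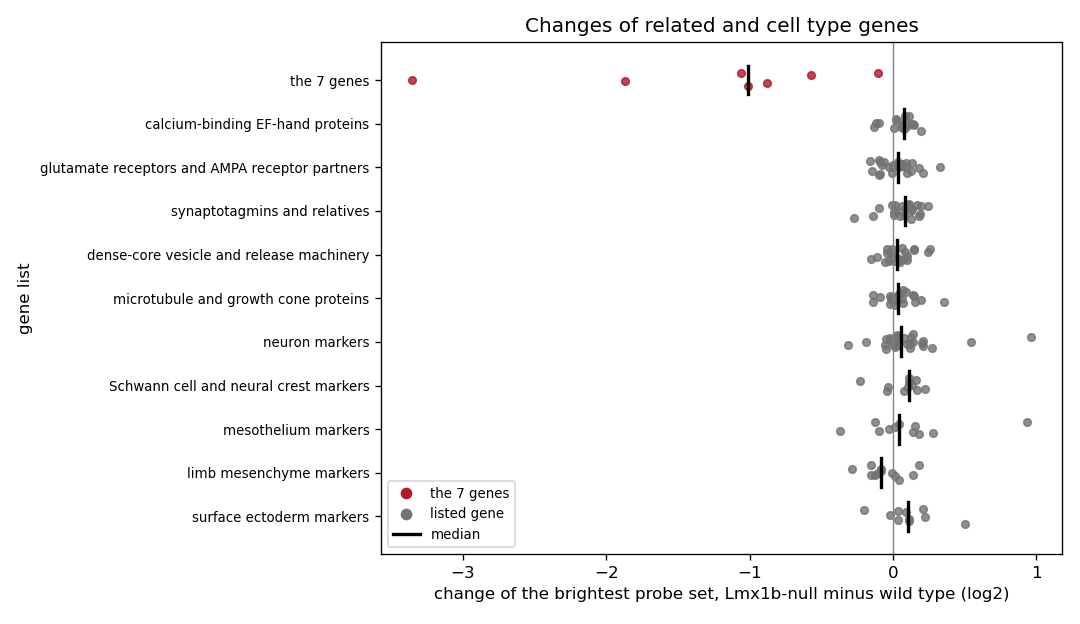
Change of the brightest probe set of each gene (horizontal axis, log2, Lmx1b-null minus wild type) for the 7 genes in red and for the listed genes in grey, with the median of each row in black. The 7 genes, chosen on this comparison, reach -3.36, while the row medians of the lists lie between -0.08 and 0.11.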

How the data were processed

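RNA of 6 pools (3 Lmx1b-null, 3 wild type) was hybridised to 1 array each, per the labels. The authors deposited log2 values for each probe set, summarised by RMA, per the submitters' processing notes (no version stated there); the base was inferred from the values. RMA equalises distributions between arrays, which hides a shift of most transcripts, and compresses differences at low signal.

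Of 45101 probe sets, 64 controls were left out. Symbols came from the platform annotation. The fit used limma 3.58.1 (R 4.3.3, with lmFit and eBayes), two-sided, adjusted by Benjamini-Hochberg over 45037 probe sets at 0.05. With 3 pools against 3 an exact permutation test cannot go below 0.1. The number of arrays limits the precision (median SE 0.0843).

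The 7 genes and the lists were chosen with earlier results of these data known. From each list the rule took up to 4 called genes, the 2 brightest and the 2 with the smallest p; some of these are counted only. The genes most like Calb2 were ranked by r. Gria1, Gria3, Gria4, Cadps, Dclk1, Pafah1b1, Tubb3, Elavl3, Syp, Mnx1 and the markers below the lower quartile were named after their values were seen. The deviations of pools with the same number correlated at -0.239, -0.0878 and -0.168. This gave no sign that the numbers pair pools but cannot exclude it, and the labels do not say.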

Additional observations from a re-analysis of the deposited data

How the results depend on the processing

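Against 38 probe sets called in all and 4 of the 7 genes' 16, an intensity trend called 94 and 8, array weights 69 and 7, and an adjusted p under 0.1 called 99 and 7, adding probe sets of Dcx and Gap43. Probe sets above the median alone gave 20 and 1, but only 7 of the 16 were in that fit. The called Gria2 and Cadps2 probe sets were not in it, whereas the called Syt13 one was and lost its call. The Xist level as covariate gave 9 and 1. With 1 probe set per gene 19 were called, and 4 of the 7 genes, Gap43 in place of Gria2. The called Gria2 probe set was not the brightest of its gene and was not in that fit. Paired by pool number as a replicate block, 14 and 1 were called. Leaving out each pool in turn gave 13 to 38 probe sets in all and 1 to 3 of the 16; the cause was not tested. In each of these settings with 1 call, it was Calb2, and no support is read from calls on genes that this comparison chose. The robust option, median centring, repeated quantile normalization and removal of cross-hybridising probe sets gave 4 of the 16. The listed relatives had 0 calls in every setting. No change of the 11 probe sets without overlap turned its sign in any setting; Calb2 ranged from -3.57 to -3.22. Centring moved the median change of all probe sets from 0.01 to 0.00. The 4 Calb1 probe sets and the dimmest Dcx one are limited by signal.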

Other observations

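Within the groups, the mean level of most lists deviated from pool to pool together with Syt13 and Cadps2, over 6 pools and given as a description chosen after the values were seen. With the brighter Syt13 probe set, r was 0.913 for the neuron markers and 0.857 for the synaptotagmin relatives. It was 0.795 for the Schwann cell and neural crest markers and 0.757 for the microtubule and growth cone genes. It was 0.736 for the glutamate receptor genes and partners, 0.713 for the EF-hand genes and 0.663 for the dense-core vesicle genes. For the mesothelium and surface ectoderm markers it was 0.642 and 0.518. For the limb mesenchyme markers, however, it was -0.487. Wild-type pool 1 had the lowest mean of the 6 pools in every list except limb mesenchyme, so these values share that array. Gria2, Gap43 and Dcx had r of 0.164, 0.0803 and 0.0602 with the neuron markers, and Calb2 0.528. Calb1, below the lower quartile in all 6 pools, had 0.871 with the neuron markers. The highest r of Calb2 with any list was 0.866, for the surface ectoderm markers.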
